A study of Mus musculus with 54 samples.

Results

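The genes described here were 7 genes of red cell production in mouse spleen, Slc4a1, Alas2, Car1, Klf1, Gata1, Epb42 and Tfrc. They were taken by symbol from a deposited matrix of 13611 genes, all 7 were found, and their levels were read in every library. RNA had been sequenced in 54 libraries: 10 each from spleen, thymus, small intestine and large intestine of C57B6 mice, and 14 from NIH3T3, a line of mouse embryonic fibroblasts. The irradiated groups received 10 Gy of gamma radiation and were sampled once at each hour. Each tissue gave windows of 2 libraries (1 to 2 h), 3 libraries (3 to 5 h), 3 libraries (6 to 8 h) and 1 library (24 h), and NIH3T3 had a further window of 4 libraries (9 to 12 h). The untreated group was the 0 h library of each system (n = 1). The labels give neither the age nor the sex of the mice, and do not say whether the hours, or the organs of an hour, came from separate animals. Libraries of neighbouring hours served as replicates, so each p-value below measures the spread between such libraries, which may be technical, and every contrast with 0 h rests on 1 untreated library.

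In mice the spleen remains a site of red cell production in adult life, where erythroid precursors mature in the red pulp beside macrophages. Gata1 and Klf1 encode the transcription factors that switch on most genes of the lineage. Tfrc encodes transferrin receptor 1, the route of iron into cells, and proliferating cells of many kinds use it. Alas2 encodes the erythroid form of 5-aminolevulinate synthase, the first enzyme of haem synthesis, and Car1 encodes carbonic anhydrase 1, a cytosolic enzyme of red cells that the colon epithelium also makes. Slc4a1 encodes band 3, the anion exchanger of the red cell membrane, and Epb42 encodes protein 4.2, which binds band 3 to the membrane skeleton. Band 3, protein 4.2 and the globins are made in large amounts late in maturation, and haemoglobinised cells lose their nucleus and then their RNA.

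By RefSeq coordinates on GRCm38.p6 (mm10), Epb42 lies on chromosome 2 (121017891 to 121036877), Car1 on 3 (14766214 to 14808365), Klf1 on 8 (84901982 to 84905291), Slc4a1 on 11 (102348820 to 102365281), Tfrc on 16 (32608896 to 32632794), and Gata1 (7959260 to 7976663) and Alas2 (150547417 to 150570622) on X. The RefSeq promoter table held 5 of the 7 genes, and Car1 and Slc4a1 had no entry. The 250 bases before the start site are shown for Klf1, which fell over 1 to 8 h, and for Alas2 and Tfrc, which did not pass the test until 24 h. Capitals mark GATAA, the core letters that GATA factors bind, and CACCC, the core letters that KLF factors bind, on either strand, where they read TTATC and GGGTG. Each sequence runs 5′ to 3′ on the plus strand of the genome, which is the strand of the gene.
Klf1, chr8:84901732-84901981: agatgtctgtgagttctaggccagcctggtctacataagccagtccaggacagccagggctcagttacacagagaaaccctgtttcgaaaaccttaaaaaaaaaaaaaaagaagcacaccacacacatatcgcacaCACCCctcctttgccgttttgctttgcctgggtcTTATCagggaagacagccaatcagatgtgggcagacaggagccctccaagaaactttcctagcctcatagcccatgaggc
Alas2, chrX:150547167-150547416: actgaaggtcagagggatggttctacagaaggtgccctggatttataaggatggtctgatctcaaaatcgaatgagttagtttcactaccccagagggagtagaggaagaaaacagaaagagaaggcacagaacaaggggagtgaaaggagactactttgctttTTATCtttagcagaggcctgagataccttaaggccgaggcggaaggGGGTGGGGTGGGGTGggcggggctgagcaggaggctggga
Tfrc, chr16:32608646-32608895: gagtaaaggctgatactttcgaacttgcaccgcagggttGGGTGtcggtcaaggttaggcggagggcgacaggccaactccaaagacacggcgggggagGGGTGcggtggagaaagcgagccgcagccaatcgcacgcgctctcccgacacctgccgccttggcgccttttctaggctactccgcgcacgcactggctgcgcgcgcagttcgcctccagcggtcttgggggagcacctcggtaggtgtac
The Klf1 window held 1 GATAA and 1 CACCC, and the Alas2 window held 1 GATAA and a run of 3 adjoining CACCC. The Tfrc window held 2 CACCC and no GATAA. Of the other windows, that of Epb42 held 1 GATAA and no CACCC, and that of Gata1 held 2 CACCC and no GATAA. Of all 32851 promoter windows of this length in the table, 22.6% held GATAA, 52.0% held CACCC and 10.1% held both, so these matches describe letters only.

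Levels are FPKM, fragments scaled by transcript length and by the mapped fragments of the library. No library's number of fragments is given in the sources used here, and the depth behind a single value is unknown. The 0 h libraries held the marker genes of their labelled tissues: 12 B cell genes summed to 2904 FPKM in spleen, 11 T cell genes to 2672 FPKM in thymus, and 10 epithelial genes of small intestine to 100590 FPKM in small intestine. Several libraries stood apart. The 6 h spleen library held 11 exocrine pancreas genes at 80768 FPKM in sum, against a median of 29.2 FPKM over the spleen libraries at 1 to 8 h, and the 24 h thymus (9823 FPKM) and 2 h large intestine (36943 FPKM) libraries were high in the 10 small intestine genes. In spleen, the 4 h library was the highest and the 5 h library the lowest of the hours 1 to 8 for many erythroid genes: 5 of the 7 genes peaked at 4 h and 5 of 7 were lowest at 5 h, against 8.47% and 9.72% of all 11791 genes tested in spleen, with ties not counted. Results that these libraries change are given with and without them.

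The 7 genes were not lost together. Car1, Gata1 and Klf1 were lower than at 0 h in every irradiated spleen library. This rests on a single untreated library, and the share of all genes that did the same was not counted. Tfrc, Alas2, Slc4a1 and Epb42 were each above 50% of their 0 h level at 8 h and below 10% of it at 24 h. That description uses single libraries at 0, 8 and 24 h, and the share of all genes with such a course was not counted either. By the hour from which a gene stayed at or below 50% of its 0 h level through 8 h, the order was Car1 and Gata1 (1 h), then Klf1 (5 h), and the other 4 genes did not reach that point by 8 h. This order depended on the scale. The 5 h of Klf1 rested on 52.5% in the 4 h library, and relative to Alas2 in the same library Klf1 stayed at or below 50% from 1 h and Gata1 at no hour up to 8 h. Alas2 is itself one of the 7 genes and stood at 27.6% of its 0 h level at 5 h, which raises the ratios there. Against the mean of 0, 1 and 2 h, Car1 stayed at or below 50% from 2 h, Klf1 from 5 h and Gata1 at no hour. That mean includes the 1 and 2 h libraries, where Gata1 was already at 38.95% and 30.8% of its 0 h level. In a bulk tissue, fewer cells of a type and less RNA per cell cannot be told apart.

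**Figure D1:**
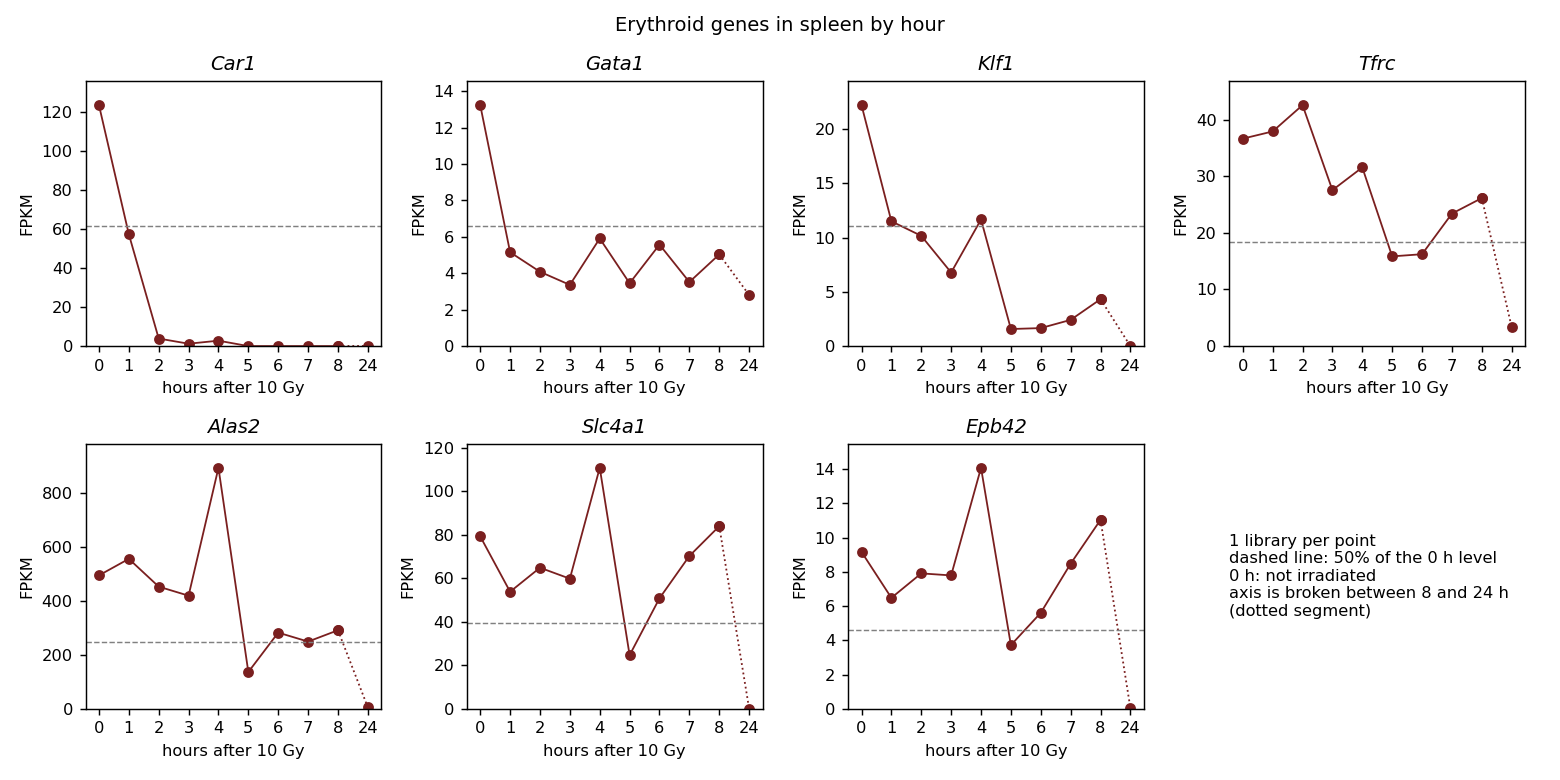
FPKM of each gene in spleen (vertical axis, linear from 0) against hours after 10 Gy (horizontal axis), with 1 library per point and a dashed line at 50% of the 0 h level. Car1 reached 3.86 FPKM by 2 h and Gata1 5.15 FPKM by 1 h, while Alas2, Slc4a1 and Epb42 peaked at 4 h, dipped at 5 h and were near the axis only at 24 h.

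Among the transcription factors, Gata1 stood at 13.2 FPKM at 0 h, at 5.15, 4.08, 3.36, 5.91, 3.45, 5.57, 3.52 and 5.03 FPKM at 1 to 8 h, and at 2.81 FPKM at 24 h. All 9 irradiated libraries lay below the single 0 h library, a description for which no share of all genes was counted. The values from 1 to 8 h showed no further trend. The mean over 1 to 8 h was 4.51 ± 1.03 FPKM (SD, n = 8), against 13.2 FPKM at 0 h. Klf1 stood at 22.2 FPKM at 0 h, at 11.5, 10.2, 6.78, 11.7, 1.57, 1.66, 2.42 and 4.32 FPKM at 1 to 8 h, and was listed at 0 at 24 h. The libraries at 1 to 4 h lay between 30.5% and 52.5% of the 0 h level and those at 5 to 8 h between 7.08% and 19.5%. That cut is not one of the windows tested. In those windows Klf1 overlapped, with 1.57 to 11.7 FPKM at 3 to 5 h and 1.66 to 4.32 FPKM at 6 to 8 h.

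Car1, the carbonic anhydrase, stood at 123 FPKM at 0 h, at 57.3, 3.86, 1.22 and 2.77 FPKM at 1 to 4 h, and was listed at 0 in each of the libraries from 5 to 8 h and at 24 h. Only the 1 h library held more than 5% of the 0 h level. Car1 passed the filter on low values through its 0 h and 1 h libraries. Colon epithelium also makes Car1, so 9 colon epithelial genes, chosen after values were seen, were read in the same libraries: in spleen they summed to between 0.688 and 3.01 FPKM at 1 to 8 h, against 0.379 FPKM at 0 h, and in large intestine to 30130 FPKM at 0 h. In the 0 h spleen library 8 of these 9 genes were listed at 0. The source of Car1 in spleen was not tested.

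For iron uptake, Tfrc stood at 36.6 FPKM at 0 h, at 37.9, 42.5, 27.5, 31.5, 15.8, 16.2, 23.4 and 26.1 FPKM at 1 to 8 h, and at 3.35 FPKM at 24 h. The libraries at 1 and 2 h lay above the 0 h library, and all later ones below it.

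Alas2, of haem synthesis, stood at 495 FPKM at 0 h, at 556, 453, 419, 894, 136, 283, 249 and 291 FPKM at 1 to 8 h, and at 5.36 FPKM at 24 h. Its early libraries lay on both sides of the 0 h library, and the libraries from 5 to 8 h all lay below it.

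Of the membrane genes, Slc4a1 stood at 79.2 FPKM at 0 h, at 53.8, 64.8, 59.8, 111, 24.6, 50.8, 70.2 and 83.9 FPKM at 1 to 8 h, and at 0.061 FPKM at 24 h. Epb42 stood at 9.17 FPKM at 0 h, at 6.48, 7.91, 7.79, 14.1, 3.72, 5.61, 8.48 and 11.04 FPKM at 1 to 8 h, and at 0.0357 FPKM at 24 h. In both genes the 4 h and 8 h libraries lay above the 0 h library and the 24 h library held less than 0.5% of it.

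Set against 0 h over the whole span of 1 to 8 h, 3 of the 7 genes fell and the other 4 did not pass the test, while 3.66% of the genes tested in spleen fell in this contrast. Changes are given as differences of log2(FPKM + 1), which understate the change of low genes, from limma with Benjamini-Hochberg adjustment over all genes tested. Car1 fell by 5.56 ± 0.88 (SE, adjusted p = 0.000236), Klf1 fell by 1.95 ± 0.46 (adjusted p = 0.00868) and Gata1 fell by 1.39 ± 0.19 (adjusted p = 6.15e-05). Car1 passed the filter on low values through its 0 h and 1 h libraries, which favours its fall in advance. The same limit holds for Car1 in the spleen contrasts below that have 0 h or 1 to 2 h as reference. The changes of the others were -0.47 ± 0.33 for Tfrc, -0.47 ± 0.55 for Alas2, -0.39 ± 0.37 for Slc4a1 and -0.23 ± 0.33 for Epb42, with adjusted p from 0.428 to 0.726. The 4 tissues shared 1 estimate of the spread, and Gata1 was listed near 0 in both intestines, so its error was partly set there: fitted on spleen alone, adjusted p was 0.0350 for Gata1, 0.0260 for Car1 and 0.134 for Klf1. With a pseudocount of 0.1 in place of 1, adjusted p was 0.263 for Klf1 and 0.0584 for Gata1, both still lower than at 0 h.

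At 1 to 2 h against 0 h, Gata1 alone of the 7 genes passed the test, with a change of -1.35 ± 0.23 (limma, adjusted p = 0.000883), while 1.02% of the genes tested fell. Fitted on spleen alone, that p was 0.118, and with a pseudocount of 0.1 it was 0.167. Car1 had a larger change of -2.89 ± 1.02 that did not pass (adjusted p = 0.119). Its 2 libraries differed widely, and without the 1 h library the change was -4.68 (adjusted p = 0.00382). Klf1 had a change of -0.97 ± 0.53 (adjusted p = 0.357), and Alas2, at 0.02 ± 0.64, and Tfrc, at 0.13 ± 0.38, were within their error of 0.

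At 3 to 5 h against 0 h, Car1, Klf1 and Gata1 had fallen, 3 of the 7 genes against 3.04% of the genes tested. The filter on low values favoured the fall of Car1 in advance. Car1 averaged 1.33 ± 1.39 FPKM (SD, n = 3), against 123 FPKM at 0 h, a change of -5.94 ± 0.96 (limma, adjusted p = 0.000273). Klf1 averaged 6.68 ± 5.05 FPKM (SD, n = 3), against 22.2 FPKM at 0 h, with a change of -1.88 ± 0.50 (adjusted p = 0.0217, and 0.200 fitted on spleen alone). For Gata1 the change was -1.48 ± 0.21 (adjusted p = 7.08e-05, and 0.0435 fitted on spleen alone). With a pseudocount of 0.1, Car1 alone passed, and adjusted p was 0.361 for Klf1 and 0.0700 for Gata1. Slc4a1 had a change of -0.52 ± 0.40 (adjusted p = 0.498) that passed only without the 4 h library (-1.02, adjusted p = 0.0418) and was 0.04 without the 5 h library.

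At 6 to 8 h against 0 h Car1, Klf1 and Gata1 fell, while 6.86% of the genes tested fell. For Car1 the filter on low values favoured this in advance. Klf1 averaged 2.80 ± 1.37 FPKM (SD, n = 3), against 22.2 FPKM at 0 h, a change of -2.67 ± 0.50 (limma, adjusted p = 0.000617, and 0.0447 fitted on spleen alone). Gata1 averaged 4.71 ± 1.07 FPKM (SD, n = 3), against 13.2 FPKM at 0 h, a change of -1.34 ± 0.21 (adjusted p = 0.000108). Car1 was listed at 0 in all 3 libraries, against 123 FPKM at 0 h, so no fold is given; its adjusted p was 2.42e-05. Alas2 averaged 274 ± 22.2 FPKM (SD, n = 3), against 495 FPKM at 0 h, a change of -0.85 ± 0.60 that did not pass (adjusted p = 0.358), nor did Tfrc at -0.74 ± 0.36 (adjusted p = 0.157). Slc4a1 averaged 68.3 ± 16.7 FPKM and Epb42 8.38 ± 2.72 FPKM (SD, n = 3 each), against 79.2 and 9.17 FPKM at 0 h, with adjusted p of 0.740 and 0.815. Without the 6 h library, which held the pancreas genes, adjusted p was 8.65e-05 for Car1, 0.00259 for Klf1 and 8.68e-05 for Gata1. With a pseudocount of 0.1, Car1 alone passed, and adjusted p was 0.0911 for Klf1 and 0.0617 for Gata1.

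At 24 h against 0 h all 7 genes fell, while 7.51% of the genes tested did. The membrane and haem genes, which had not passed the test at 6 to 8 h, now had some of the largest changes: -6.24 ± 0.49 for Slc4a1 (limma, adjusted p = 4.71e-08) and -6.28 ± 0.73 for Alas2 (adjusted p = 5.10e-06). Epb42 fell by 3.30 ± 0.44 (adjusted p = 1.97e-05), Tfrc by 3.11 ± 0.44 (adjusted p = 3.43e-05) and Gata1 by 1.90 ± 0.26 (adjusted p = 2.51e-05). Klf1 and Car1 were listed at 0 in the 24 h library, with adjusted p of 2.43e-05 and 0.000240. Gata1 kept the largest share of its 0 h level, 21.2%, followed by Tfrc with 9.15% and Alas2 with 1.08%. The contrast compares 1 library with 1, with the error taken from the other windows of all tissues. Alas2, Slc4a1, Epb42, Klf1 and Gata1 were at trace levels outside spleen, so their errors were partly set by values near 0. The error of Car1 was partly set in large intestine, and the filter on low values favoured its fall in advance. These p-values thus do not measure the spread within spleen alone, here and in the other contrasts of the shared fit. All 7 calls held under each of the alternatives tried, a fit on spleen alone included.

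**Figure D2:**
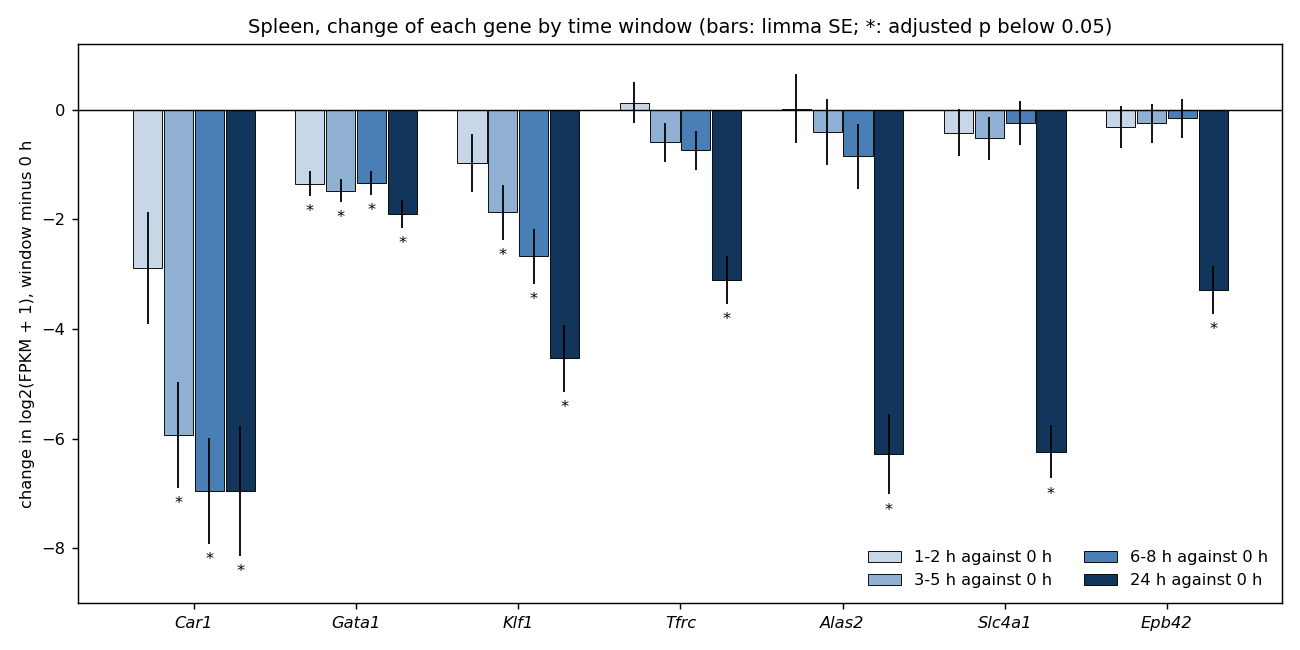
Change in log2(FPKM + 1) in spleen (vertical axis) for each gene and time window against the 0 h library, as bars from 0 with limma standard errors; asterisks mark adjusted p below 0.05. Gata1 was lower by 1.34 to 1.48 in the 3 windows up to 8 h, Klf1 had changes of -0.97, -1.88 and -2.67 in them, and Alas2, Slc4a1 and Epb42 reached -6.28, -6.24 and -3.30 only at 24 h.

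The contrasts between irradiated windows do not use the 0 h library. At 24 h against 6 to 8 h, 5 of the 7 genes fell and 4.35% of the genes tested did. Slc4a1 had a change of -6.0 ± 0.40 (limma, adjusted p = 1.47e-09), Alas2 of -5.43 ± 0.60 (adjusted p = 6.94e-06), Epb42 of -3.14 ± 0.36 (adjusted p = 8.15e-06), Tfrc of -2.37 ± 0.36 (adjusted p = 0.000172) and Klf1 of -1.87 ± 0.50 (adjusted p = 0.0185, and 0.163 fitted on spleen alone). Gata1 had a change of -0.57 ± 0.21 (adjusted p = 0.0901), which passed without the 4 h library (adjusted p = 0.0395) and without the 7 h library (adjusted p = 0.0358). Car1 was listed at 0 on both sides.

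At 3 to 5 h against 1 to 2 h, Car1 alone of the 7 genes passed, with a change of -3.05 ± 0.76 (limma, adjusted p = 0.0164), while 3.32% of the genes tested fell. The filter on low values favoured this call of Car1 in advance. That call rested on the 1 h library, without which the change was -1.26 (adjusted p = 0.468), and it did not pass without the 5 h library (adjusted p = 0.103) or in a fit on spleen alone (adjusted p = 0.120). Klf1 had a change of -0.90 ± 0.40 (adjusted p = 0.182), which passed without the 4 h library (-1.40, adjusted p = 0.0341). At 6 to 8 h against 3 to 5 h, 0 of the 7 genes passed in limma, where 5.31% of the genes tested fell. Klf1 alone of the 7 had an unadjusted p under 0.05. This contrast turned on the libraries at 4 and 5 h. Klf1 had a change of -0.80 ± 0.36 with all libraries (adjusted p = 0.136) and of -1.45 without the 5 h library (adjusted p = 0.000713). Alas2 had a change of -0.44 ± 0.42, which was -1.16 without the 5 h library (adjusted p = 0.0206), and Slc4a1 had 0.28 ± 0.28, which was 0.78 without the 4 h library (adjusted p = 0.0375).

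As a trend per hour over the 8 libraries at 1 to 8 h, 2 of the 7 genes fell, against 11.4% of the genes tested. Car1 had a slope of -0.69 ± 0.15 on the log2 scale per hour (limma, adjusted p = 0.0114). It passed the filter through its 0 h and 1 h libraries, which favours a fall in advance. Because it was listed at 0 from 5 h on, the slope is not a steady rate. Klf1 had -0.29 ± 0.09 (adjusted p = 0.0485), which did not pass without the libraries at 1, 2, 3, 6 or 7 h in turn (adjusted p from 0.0772 to 0.124). Tfrc had -0.13 ± 0.05 (adjusted p = 0.0978) and Alas2 -0.18 ± 0.09 (adjusted p = 0.174). Gata1, at 0.00 ± 0.04, Slc4a1, at 0.03 ± 0.08, and Epb42, at 0.03 ± 0.07, were flat within their error. Without the 4 h and 5 h libraries the slope of Alas2 was -0.15 (adjusted p = 0.00794).

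Because many erythroid genes peaked at 4 h and dipped at 5 h, the genes were also read as ratios to Alas2 within a library, a comparison chosen after the data were seen. Relative to Alas2, Klf1 was at 48.0% of its 0 h ratio on average at 1 to 2 h, at 30.2% at 3 to 5 h and at 22.6 ± 10.0% at 6 to 8 h (SD, n = 3), and it stayed at or below 50% from 1 h on. Slc4a1 was at 74.9%, 93.1% and 156 ± 37.98% in the same windows, and Epb42 at 78.6%, 111% and 165 ± 51.3%. Tfrc was at 109% at 1 to 2 h, 97.7% at 3 to 5 h and 109 ± 27.0% at 6 to 8 h. Gata1 was at 34.2%, 49.8% and 63.7 ± 10.5%. Alas2 itself averaged 274 FPKM at 6 to 8 h, against 495 FPKM at 0 h, which raises the ratios there. In FPKM, neither Slc4a1 (68.3 on average, against 79.2 at 0 h) nor Epb42 (8.38, against 9.17) was higher at 6 to 8 h. These ratios were not tested.

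Within spleen, the genes whose level was most like that of each gene were picked by Pearson r of log2(FPKM + 1) over the 10 libraries, as a description. Alas2 went with the globin genes Hbb-bt (r = 1.00), Hbb-b1 (r = 0.998) and Hba-a1 (r = 0.998). Slc4a1 went with Epb42 (r = 0.986) and the globin Hbb-bs (r = 0.984), and Epb42 went with Trim10 (r = 0.993) and Slc4a1. Tfrc was most like Hemgn (r = 0.973), which encodes the erythroid nuclear protein hemogen, then Gramd4 (r = 0.969) and Amd2 (r = 0.964). Klf1 was most like Zfp7 (r = 0.983), Esco2, a cohesin acetyltransferase of dividing cells (r = 0.975), and Memo1 (r = 0.974). Car1 was most like Sipa1 (r = 0.977), Il5ra, the interleukin 5 receptor (r = 0.975), and Cacna1i (r = 0.975). Gata1 was most like S1pr4 (r = 0.954), Kcnn4 (r = 0.931) and Kif22 (r = 0.920). The 10 libraries include the single 24 h library, where Tfrc, Alas2, Slc4a1 and Epb42 were all lowest. Over the 8 libraries at 1 to 8 h alone, r was 0.976 between Slc4a1 and Epb42 and 0.108 between Slc4a1 and Car1. Between Alas2 and Slc4a1 it was 0.743 there (0.970 over 10), and between Tfrc and Slc4a1 0.557 (0.922). Between Klf1 and Gata1 it was 0.309 (0.693). Some pairs were higher there, such as Klf1 and Tfrc with 0.934 (0.895). All these values share the same libraries and their depth, and the globin genes have near-identical copies between which reads may be split.

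In the wider lists of red cell genes, which were assembled with earlier results of these data known, 72 tested genes besides the 7 were called more often at 24 h than in the earlier windows. At 1 to 2 h against 0 h, 2 fell and 1 rose. At 3 to 5 h, 7 fell and 2 rose, and at 6 to 8 h, 15 fell (20.8%) and 6 rose. At 24 h, 35 fell (48.6%) and 3 rose. Falls stood against 1.02% of all genes tested at 1 to 2 h and 3.04% at 3 to 5 h. At 6 to 8 h and 24 h they stood against 6.86% and 7.51%. Rises stood against 10.8% of all genes tested at 6 to 8 h and 13.2% at 24 h. The same shares apply to the counts of each list below. Unlike the 72 genes, those lists include the members of the 7 that belong to them. The median change of the 72 genes was -0.25, -0.39, -0.54 and -1.16 in these windows. At 3 to 5 h the number that fell was 1 with a pseudocount of 0.1, 3 fitted on spleen alone, 11 without the 3 h library and 16 without the 4 h library. At 1 to 2 h it was 4 without the 1 h library and 0 without the 2 h library. At 6 to 8 h it was 6 with a pseudocount of 0.1 and 8 without the 6 h library. Fitted on spleen alone, 6 fell at 6 to 8 h and 27 at 24 h; without the 4 h and 5 h libraries, 23 and 39 did, and without the 6 h library and the other 2 libraries that held transcripts of another organ, 10 and 41.

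**Figure D3:**
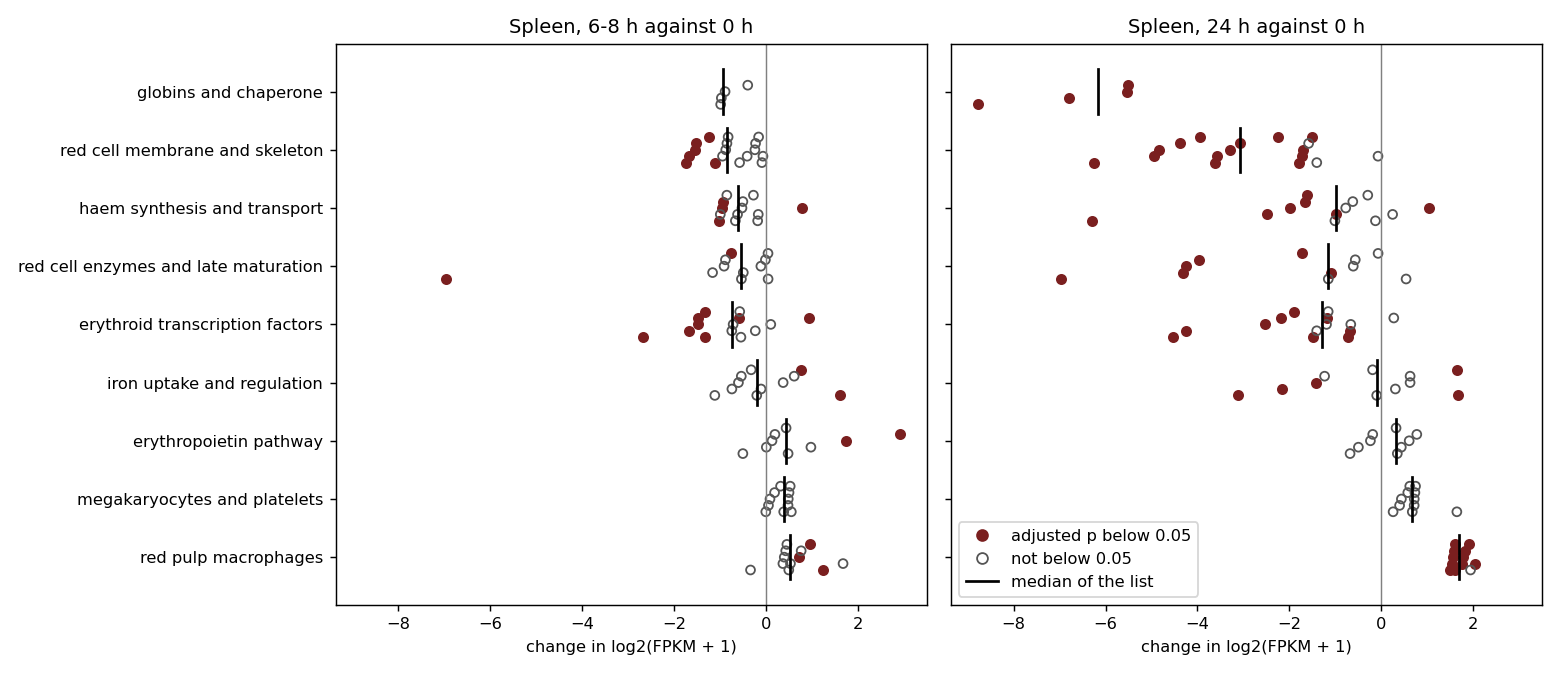
Change in log2(FPKM + 1) in spleen at 6 to 8 h (left) and 24 h (right) against 0 h, with 1 point per tested gene of each list, the 7 genes included, filled where adjusted p was below 0.05, and a bar at the list's median. At 24 h all 4 globin genes and 14 of 17 membrane genes had fallen, while 0 of 11 megakaryocyte genes had and 11 of 12 macrophage genes had risen.

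Of the globins, the oxygen carriers, 0 of 4 passed at 6 to 8 h (median change -0.93) and 4 of 4 fell at 24 h (median change -6.17). Hbb-b1 stood at 437 FPKM at 24 h, against 20341 FPKM at 0 h, and fell by 5.54 ± 1.95 (limma, adjusted p = 0.0454). Hba-a1 stood at 221 FPKM at 24 h, against 10050 FPKM at 0 h, and fell by 5.50 ± 1.44 (adjusted p = 0.00945). Among membrane and skeleton genes, Slc4a1 and Epb42 included, 6 of 17 fell at 6 to 8 h and 14 of 17 at 24 h. Those that fell at 6 to 8 h included Rhd, of the Rh complex, by 1.68 ± 0.49 (adjusted p = 0.0189), Aqp1, a water channel, by 1.53 ± 0.52 (adjusted p = 0.0451), and Ank1, erythroid ankyrin, by 1.73 ± 0.47 (adjusted p = 0.0119). Ank1 varied widely, from under 0.01 FPKM in the libraries at 4, 6 and 8 h to 1.92 FPKM at 7 h. Aqp1 stood at 28.2 FPKM at 24 h, against 76.1 FPKM at 0 h, a change of -1.40 ± 0.64 that did not pass the test.

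Among the genes of haem synthesis and transport, Alas2 included, 3 of 13 fell and 1 rose at 6 to 8 h. At 24 h, 6 of 13 fell and 1 rose. Cpox, coproporphyrinogen oxidase, fell by 1.02 ± 0.26 at 6 to 8 h (limma, adjusted p = 0.00754) and Urod, uroporphyrinogen decarboxylase, by 0.95 ± 0.26 (adjusted p = 0.0118). At 24 h Fech, ferrochelatase, fell by 1.65 ± 0.43 (adjusted p = 0.00961). The gene that rose at 6 to 8 h was Hebp1, which encodes a haem-binding protein, by 0.79 ± 0.23 (adjusted p = 0.0184). Of the red cell enzymes and maturation genes, Car1 included, 2 of 11 fell at 6 to 8 h and 6 of 11 at 24 h. Bpgm, bisphosphoglycerate mutase, stood at 9.88 FPKM at 24 h, against 216 FPKM at 0 h, and fell by 4.32 ± 0.63 (adjusted p = 5.21e-05). Car2, the carbonic anhydrase that red cells share with many tissues, stood at 220 FPKM at 0 h, 121 ± 26.5 FPKM at 6 to 8 h (SD, n = 3) and 13.2 FPKM at 24 h, and fell by 3.96 ± 0.61 at 24 h (adjusted p = 8.67e-05). Of the 2 carbonic anhydrases, then, Car2 was still present in every library and Car1 was listed at 0 from 5 h on.

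Of the erythroid transcription factors, Klf1 and Gata1 included, 7 of 14 fell and 1 rose at 6 to 8 h, and 9 of 14 fell at 24 h. Lmo2 and Lyl1, partners in the GATA1 complex and its relatives, fell at 6 to 8 h by 1.48 ± 0.42 (limma, adjusted p = 0.0164) and 1.48 ± 0.33 (adjusted p = 0.00267). At 24 h the change of Lmo2, -1.15 ± 0.51, did not pass the test. Lyl1 stood at 30.8 FPKM at 0 h, 11.2 FPKM at 1 h and 10.4 FPKM at 24 h. Hemgn fell by 4.24 ± 0.50 at 24 h (adjusted p = 5.46e-06), where it stood at 0.755 FPKM, against 32.2 FPKM at 0 h. Bcl11a, which silences fetal globin and which B cells also express, fell by 1.67 ± 0.49 at 6 to 8 h (adjusted p = 0.0192).

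Of 11 genes of iron uptake and regulation, Tfrc included, 0 fell and 2 rose at 6 to 8 h. At 24 h, 3 fell and 2 rose. Besides Tfrc, Slc25a37, the mitochondrial iron importer mitoferrin, fell at 24 h by 2.16 ± 0.66 (limma, adjusted p = 0.0231). The ferritin genes rose: Fth1 stood at 1374 FPKM at 0 h, 4222 ± 296 FPKM at 6 to 8 h (SD, n = 3) and 4303 FPKM at 24 h, and rose by 1.62 ± 0.38 at 6 to 8 h (adjusted p = 0.00415). Ftl1 rose by 1.66 ± 0.30 at 24 h (adjusted p = 0.000520). Of 9 genes of the erythropoietin pathway, 0 fell and 2 rose at 6 to 8 h, Bcl2l1 by 1.75 ± 0.26 (adjusted p = 5.45e-05) and Socs3 by 2.92 ± 1.00 (adjusted p = 0.0449), and at 24 h 0 passed in either direction. Both genes also respond to signals in other cells. Epor, the erythropoietin receptor, which was named after its values were seen, stood at 10.1 FPKM at 0 h, 3.61 to 7.73 FPKM at 1 to 8 h and 17.9 FPKM at 24 h. It fell by 1.06 at 1 to 2 h (adjusted p = 0.0431) and by 1.12 at 3 to 5 h (adjusted p = 0.0126), while its change was -0.50 at 6 to 8 h (adjusted p = 0.227) and 0.78 at 24 h (adjusted p = 0.108).

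Genes of other spleen cells moved beside these changes. Of all genes tested, 6.86% fell and 10.8% rose at 6 to 8 h, and 7.51% fell and 13.2% rose at 24 h. Megakaryocyte and platelet genes, which share Gata1 with the red cell lineage, had no call: 0 of 11 passed at 6 to 8 h or at 24 h in limma, with median changes of 0.39 and 0.68 and a summed level of 428 FPKM at 0 h, 266 to 586 FPKM at 1 to 8 h and 706 FPKM at 24 h. Of the 4 genes of mast cells, basophils and eosinophils in the matrix, other cells that use Gata1, 3 were tested: Prg2 fell by 1.59 ± 0.37 at 6 to 8 h (limma, adjusted p = 0.00461) and Il5ra by 1.51 ± 0.28 (adjusted p = 0.000554), both also fell at 24 h, and Ccr3 rose by 1.59 ± 0.42 at 24 h (adjusted p = 0.0102). Il5ra was also among the genes most like Car1. Their part in the level of Gata1 was not tested. Of 12 red pulp macrophage genes, 3 rose at 6 to 8 h and 11 at 24 h, and they summed to 3369 FPKM at 0 h, 3296 to 7282 FPKM at 1 to 8 h and 11944 FPKM at 24 h. Of 9 neutrophil genes, 6 rose at 6 to 8 h and 2 at 24 h: S100a8, a granule protein gene, stood at 5575, 4436 and 6719 FPKM at 6, 7 and 8 h, against 373 FPKM at 0 h, and the 9 genes summed to 13576 FPKM in the 8 h library. Of 11 T cell genes, 5 fell at 6 to 8 h and 10 at 24 h. All 12 B cell genes fell at 6 to 8 h and at 24 h, with sums of 2904 FPKM at 0 h, 452 to 2295 FPKM at 1 to 8 h and 415 FPKM at 24 h. FPKM values depend on the other transcripts of the library. With median-ratio scaling of the libraries, all calls of the 7 genes in spleen were as above.

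Dividing cells and early progenitors gave a further comparison, beside the same shares of all genes tested. These were 6.86% falling and 10.8% rising at 6 to 8 h, and 7.51% and 13.2% at 24 h. At 6 to 8 h, 7 of 15 mitosis genes and 11 of 16 replication genes fell, and at 24 h 13 and 12 did. Of 8 genes of early progenitors, 2 rose at 6 to 8 h, and 3 rose and 1 fell at 24 h. Gata2, which precedes Gata1 in the lineage, rose by 1.24 ± 0.24 at 6 to 8 h (limma, adjusted p = 0.000683) and by 0.87 ± 0.29 at 24 h (adjusted p = 0.0344). Cd33, which myeloid cells also express, rose by 1.83 ± 0.27 at 6 to 8 h (adjusted p = 5.82e-05) and by 1.502 ± 0.34 at 24 h (adjusted p = 0.00325), and Meis1 by 1.14 ± 0.35 at 24 h (adjusted p = 0.0228). Myb fell by 1.83 ± 0.44 at 24 h (adjusted p = 0.00543). All 12 targets of p53, the transcription factor that radiation activates, rose in both windows, and Cdkn1a, the cell cycle inhibitor p21, rose by 5.47 ± 0.39 at 6 to 8 h (adjusted p = 4.58e-09).

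Outside spleen, 5 of the 7 genes were at trace levels, Car1 was abundant in large intestine and Tfrc was present throughout. Alas2, Slc4a1, Epb42, Klf1 and Gata1 reached at most 2.69, 0.135, 0.403, 0.779 and 1.39 FPKM in the 44 libraries of the other tissues and NIH3T3, and none of them passed the filter of a mean of 1 FPKM there. Slc4a1, the most restricted of them, was listed at 0 in all 10 small intestine, 9 of 10 large intestine and all 14 NIH3T3 libraries. Gata1 was present in all 10 thymus libraries, as were Alas2 and Epb42, with a lowest level of 0.617, a median of 0.959 and a highest of 1.39 FPKM. It was listed at 0 in 8 of 10 small intestine and 9 of 10 large intestine libraries. At 24 h in spleen, Slc4a1 (0.061 FPKM) and Epb42 (0.0357 FPKM) were below their highest traces in thymus, while Alas2 (5.36 FPKM) was above its highest trace elsewhere.

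The Alas2 traces were read beside the globin transcript Hbb-b1. The large intestine library at 1 h had the highest level of both, with 2.69 FPKM of Alas2 and 75.4 FPKM of Hbb-b1, and the 1 h library was also the highest of small intestine in both (0.938 and 52.9 FPKM). In thymus the 7 h library had the most Hbb-b1 (65.7 FPKM), with 1.26 FPKM of Alas2, and the 4 h library had the most Alas2 (1.73 FPKM), with 20.7 FPKM of Hbb-b1. Over 0 to 8 h, Hbb-b1 in thymus was at a median of 0.0894% and in large intestine of 0.0907% of its level in spleen at the same hour, and Alas2 at 0.121% and 0.114%. In NIH3T3 cells, which carry no blood, Hbb-b1 was at most 0.00464% of spleen over those hours. The part of blood in these traces was not tested.

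**Figure D4:**
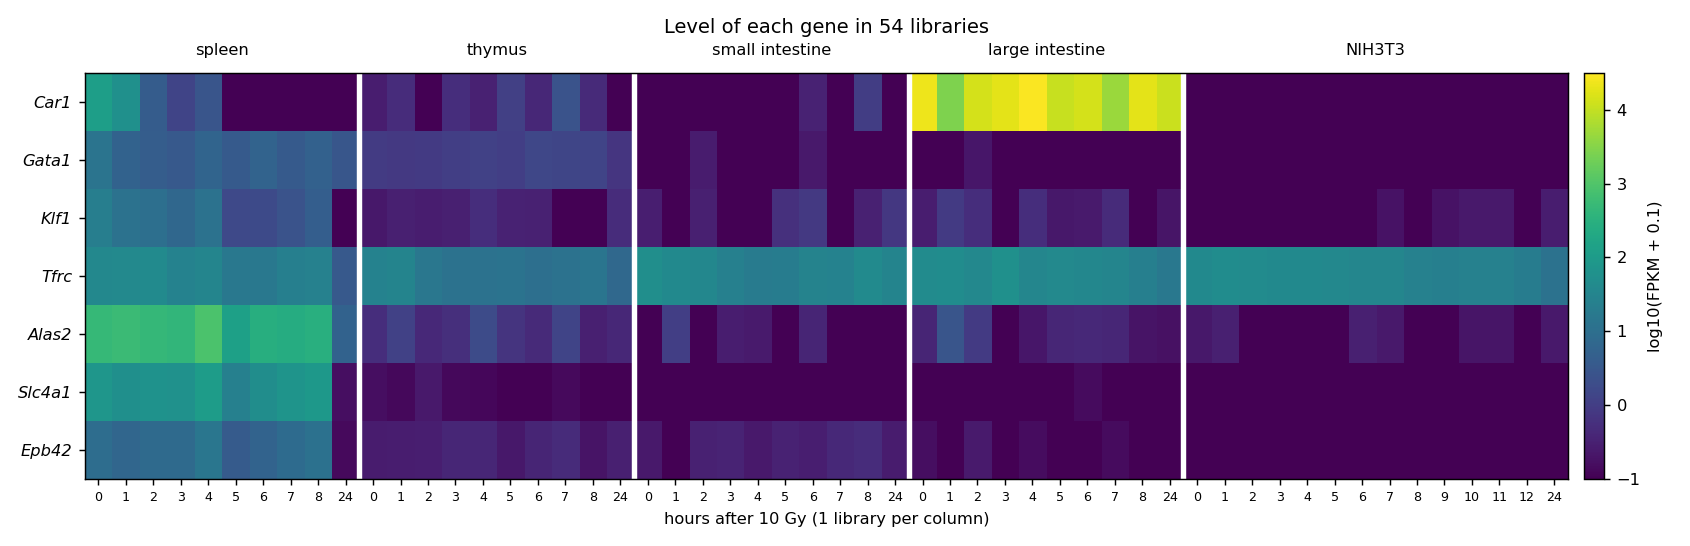
Level of each gene (rows) in the 54 libraries (columns, by system and hours after 10 Gy), coloured by log10(FPKM + 0.1). Within their own rows, Alas2, Slc4a1, Epb42 and Klf1 are brighter in spleen up to 8 h than in any other library. Tfrc is present in every library, and Car1 is brightest in large intestine, at 2768 to 29903 FPKM.

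Car1 was abundant in large intestine, where it stood at 22739 FPKM at 0 h, between 2768 and 29903 FPKM at 1 to 8 h with the lowest library at 1 h, and at 11429 FPKM at 24 h. The irradiated libraries lay on both sides of the 0 h library there, and the change over 1 to 8 h was -0.99 ± 0.89 (limma, adjusted p = 0.684); 0 of the 2 genes tested in large intestine passed, where 0.270% of genes tested fell. In thymus Car1 was at most 2.46 FPKM and in small intestine at most 0.916 FPKM, and it was listed at 0 in all NIH3T3 libraries.

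The change over 1 to 8 h in spleen was also set against the mean change in the other 3 tissues in the same fit, where 2 of the 7 genes, Gata1 and Car1, passed in limma and 0.746% of genes tested did in this direction. Gata1 and Klf1 were below the filter in each of the other tissues, and Car1 in thymus and small intestine. There was thus little or no transcript there that could fall, and the contrast is not read as a different response of these genes.

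Tfrc was the only one of the 7 genes that passed the filter in every system. It stood at 36.6 FPKM in spleen, 27.8 in thymus, 52.7 in small intestine, 45.6 in large intestine and 41.1 in NIH3T3 at 0 h, an order set by 1 library each. In thymus it stood at 27.8 FPKM at 0 h, 29.9 FPKM at 1 h and 10.2 to 14.97 FPKM at 2 to 8 h, a change over 1 to 8 h of -0.97 ± 0.33 (limma, adjusted p = 0.0541) in a contrast where 3.93% of genes tested fell. That value passed without the 3 libraries that held transcripts of another organ (adjusted p = 0.0405) and with quantile normalization (adjusted p = 0.0161). In small intestine it stood at 52.7 FPKM at 0 h, was lowest at 4 h, with 19.4 FPKM, and stood at 43.5 FPKM at 8 h, a change over 1 to 8 h of -0.85 ± 0.33 (adjusted p = 0.576), where 0.0176% of genes tested fell. In large intestine the change was -0.31 ± 0.33 (adjusted p = 0.743).

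In NIH3T3 cells Tfrc stood at 41.1 FPKM at 0 h, averaged 46.2 ± 1.95 FPKM at 1 to 2 h (n = 2), 39.6 ± 1.68 at 3 to 5 h (n = 3), 30.6 ± 4.40 at 6 to 8 h (n = 3) and 24.2 ± 2.66 at 9 to 12 h (SD, n = 4) and stood at 11.9 FPKM at 24 h. Over 1 to 8 h against 0 h the change was -0.14 ± 0.14 (limma, adjusted p = 0.586), where 1.70% of genes tested fell. At 24 h Tfrc was below its 0 h level in all 5 systems: 3.35 FPKM in spleen, 7.13 in thymus, 29.9 in small intestine, 15.8 in large intestine and 11.9 in NIH3T3, and the difference between systems at 24 h was not tested. Of the 7 genes only Tfrc could be compared in this way, and its change over 1 to 8 h in spleen did not differ from that of the other 3 tissues past the threshold, at 0.24 ± 0.38 (adjusted p = 0.861).

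**Figure D5:**
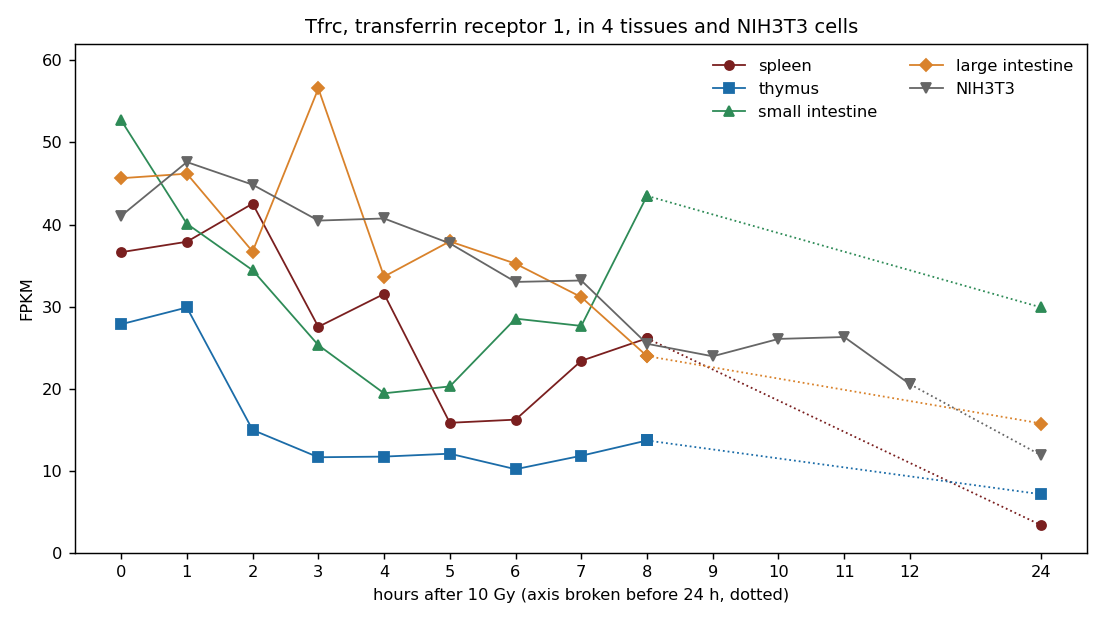
FPKM of Tfrc (vertical axis, linear from 0) against hours after 10 Gy (horizontal axis, broken before 24 h), with 1 library per point and 1 line per system. Spleen kept 26.1 FPKM at 8 h and had 3.35 FPKM at 24 h, the lowest value drawn; thymus stood at 14.97 FPKM at 2 h.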

How the data were processed

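Per the labels, organs were kept in RNAlater and ground in Trizol, and polyadenylated RNA went into unstranded TruSeq libraries. Per the submitters' processing notes, TopHat2 2.1.0, Cufflinks 2.1.1 and the build mm10 were used. The deposited values are FPKM made by the authors; any further scaling is unknown. Unstranded counting cannot tell a gene from an antisense partner.

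Here, log2(FPKM + 1) was tested with limma 3.58.1 in R 4.3.3 with an expression trend and a mean for each tissue and window, two-sided, with Benjamini-Hochberg adjustment (threshold 0.05) over genes with a mean of at least 1 FPKM in the tissue. All 40 libraries from tissue went into 1 model (20 residual degrees of freedom), with a separate model (8) for NIH3T3. The slope per hour used the 8 spleen libraries at 1 to 8 h. On simulated data, 97.8% of genes changed by 2 and 59.6% of those changed by 1 on the log2 scale were recovered for spleen at 1 to 8 h against 0 h. For 24 h against 0 h these shares were 90.0% and 32.0%. The simulated spread was independent between libraries and set by each gene's mean level, with no library that stood apart, so real recovery may be lower. Python 3.11.15 scripts made the descriptions; positions and promoters came from RefSeq tables of GRCm38.p6.

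The 7 genes and the gene lists were chosen with earlier results of these data known. The text names all 7 and, from each list, at most 4 genes per comparison with the largest changes past the threshold at 6 to 8 h or 24 h against 0 h; exceptions are marked, and some genes under this rule are not reported here. Alternatives were another pseudocount, no filter, other scalings, separate fits, other windows, an hour block and leaving out libraries. Libraries of an hour from different tissues were not treated as paired: over 9980 genes their deviations had a median correlation of 0.0408, above 0.1 in 5 of 48 pairs.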

Additional observations from a re-analysis of the deposited data

Results flagged for a closer look

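Of 13 sets of libraries at 1 to 8 h (or 9 to 12 h) examined for a library far from the others, 2 had one. Chance gives about 5% for values without a course over time. The libraries were successive hours, so a fall after 1 h can also set the 1 h library apart. The 1 h spleen library stood apart in Car1, with 57.3 FPKM, against at most 3.86 FPKM in the libraries at 2 to 8 h. The 1 h thymus library stood apart in Tfrc, with 29.9 FPKM, against 10.2 to 14.97 FPKM in the libraries at 2 to 8 h.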

How the results depend on the processing

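Of 1060 values of single genes under 20 alternatives, 1001 kept their direction and their side of the threshold; 23 called values were lost, 9 of them with a pseudocount of 0.1 and 5 in separate fits per tissue, and all 119 values at 24 h against 0 h were kept. With a pseudocount of 0.1, the number of the 7 genes that passed was 0 at 1 to 2 h and 1 each at 1 to 8 h, 3 to 5 h and 6 to 8 h against 0 h, 1 for the slope and 1 for spleen minus other tissues. In separate fits it was 0 at 1 to 2 h against 0 h and 0 at 3 to 5 h against 1 to 2 h. Without a filter, 1 passed for the slope. Without the 4 h and 5 h libraries, 0 passed at 3 to 5 h against 1 to 2 h and 1 at 6 to 8 h against 3 to 5 h. In thymus, 1 (Tfrc) passed with quantile normalization and 1 without the 3 libraries that held transcripts of another organ. Leaving out each spleen library in turn gave 1 to 2 genes at 1 to 2 h against 0 h, 0 to 2 at 3 to 5 h against 1 to 2 h, 0 to 2 at 6 to 8 h against 3 to 5 h and 1 to 3 for the slope. Some changes that did not pass the test reversed: the slope of Gata1 was -0.021 with quantile normalization and -0.0029 with median-ratio scaling, and Epb42 at 6 to 8 h against 0 h was 0.071 without the 3 libraries. Leaving out each spleen library in turn gave ranges on both sides of 0 for Alas2 at 1 to 2 h (-0.13 to 0.17) and 3 to 5 h (-1.04 to 0.31) against 0 h, Slc4a1 at 3 to 5 h (-1.02 to 0.039), Epb42 at 3 to 5 h (-0.66 to 0.18) and 6 to 8 h (-0.36 to 0.071) against 0 h, Alas2 (-1.16 to 0.19) and Slc4a1 (-0.28 to 0.78) at 6 to 8 h against 3 to 5 h, and the slopes of Gata1 (-0.020 to 0.028), Slc4a1 (-0.029 to 0.043) and Epb42 (-0.026 to 0.047). The cause was not tested. Against the mean of 0, 1 and 2 h, Car1 stayed at or below 50% from 2 h and Gata1 at no hour up to 8 h. Relative to Alas2, Klf1 did so from 1 h and Gata1 at no hour. For Gata1 both scales are limited, as it was already lower at 1 and 2 h and Alas2 was itself lower from 5 h on. Over all genes, 1024 were called at 1 to 8 h against 0 h, and 546 in separate fits and 600 with other windows; 457 at 1 to 2 h against 0 h, and 106 in separate fits, 778 without the 1 h library and 187 without the 2 h library; 872 at 3 to 5 h against 0 h, and 447 in separate fits and 351 without the 4 h and 5 h libraries; 3102 for the slope, and 1771 without the 2 h and 1833 without the 7 h library; and 167 for spleen minus other tissues, and 71 with a pseudocount of 0.1, 51 with other windows, 319 without the 1 h library and 107, 93 and 110 without the 6, 7 and 8 h libraries. Between irradiated windows, 755 genes were called at 3 to 5 h against 1 to 2 h (120 in separate fits, 10 without the 4 h and 5 h libraries, and as few as 106 without the 1 h library), 1651 at 6 to 8 h against 3 to 5 h (713 in separate fits, 558 to 2527 without single libraries) and 1249 at 24 h against 6 to 8 h (669 in separate fits, 751 with a pseudocount of 0.1, 776 without the 7 h library). Over 1 to 8 h, 1518 were called in thymus (971 with other windows, 2360 with quantile normalization), 36 in small intestine (20 to 57 over the settings), 175 in large intestine (17 in separate fits, 66 with other windows, 501 without the 3 libraries) and 464 in NIH3T3 (298 without a filter, 151 with quantile normalization). With the hour as a block (consensus correlation 0.0228), 3 of the 7 genes passed at 1 to 8 h against 0 h and 7 at 24 h, and 0 of 58 values changed their call; the hours are not known to pair the tissues. Single untreated libraries and unknown depth limit all contrasts with 0 h.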
